A study of Rattus norvegicus with 12 samples.

Results

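The 10 genes described here are interferon-inducible antiviral effectors: Ifit1, Ifit2 and Ifit3, Ifitm1, Ifitm2 and Ifitm3, Rsad2, Ifi44, Ifi44l and Bst2. They were chosen by symbol, with earlier results of these data known, and all 10 were found among the 18469 genes of the deposited expression tables. RNA was sequenced from neonatal rat ventricular myocytes (NRVMs), heart muscle cells of newborn Sprague-Dawley rats grown in primary culture, in 12 libraries of 4 groups with 3 biological replicates each. The siNeg group received a negative control siRNA and no drug, and the siNeg.PE group received the same siRNA followed 12 h later by phenylephrine (PE), which activates α-adrenergic receptors and causes heart muscle cells to enlarge, for 36 h. The siSlc25a26 group is labelled as having received an siRNA against Slc25a26, the mitochondrial carrier of the methyl donor S-adenosylmethionine, without PE, and the siSlc25a26.PE group as having received that siRNA and then PE on the same schedule. These times are those of the labels, and the study's methods give a different schedule. The level of Slc25a26 did not bear out the label in siSlc25a26.PE. Every group was transfected with an siRNA, so no group shows the level of these genes in untransfected cells, and the siRNA sequences and the dose of PE are not given in the labels.

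Type I interferons bind a receptor on the cell surface and activate the kinases JAK1 and TYK2, which lead to a complex of transcription factors, IRF9 among them, that binds the interferon-stimulated response element (ISRE) near the start of its target genes. The IFIT proteins bind viral RNA and the IFITM proteins hinder the fusion of virus and cell membranes. Rsad2 encodes viperin, an enzyme whose nucleotide product stops viral RNA synthesis, and Bst2 encodes tetherin, which holds budding virus particles at the cell surface. Ifi44 and Ifi44l are interferon-induced genes of the same family that lie next to each other. Many such genes, though not all, are known to be expressed at low levels in many resting cells, including those of the heart, and to rise with viral infection.

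Promoter sequences of 7 members were present in the RefSeq table of the rat assembly GRCr8, and those of Ifit1, Ifit2 and Ifitm1 were not used here. The 160 bases before the RefSeq gene start of each are shown because the members that moved together can be compared by their ISRE. They are written 5′ to 3′ on the gene's own strand, with matches to the ISRE core in capitals. The core was searched as GAAA, any 2 bases and GAAA again on either strand, so that a match on the other strand reads TTTC, any 2 bases and TTTC. The regions are chr1:241527166-241527325 on the plus strand for Ifit3, chr1:205482349-205482508 on the minus strand for Ifitm2, chr1:205541759-205541918 on the minus strand for Ifitm3, chr6:48788121-48788280 on the minus strand for Rsad2, chr2:243303841-243304000 on the minus strand for Ifi44, chr2:243328563-243328722 on the plus strand for Ifi44l and chr16:18254968-18255127 on the minus strand for Bst2.
Ifit3: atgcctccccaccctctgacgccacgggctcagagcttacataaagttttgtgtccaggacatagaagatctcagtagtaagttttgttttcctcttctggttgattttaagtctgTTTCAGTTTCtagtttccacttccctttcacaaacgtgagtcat
Ifitm2: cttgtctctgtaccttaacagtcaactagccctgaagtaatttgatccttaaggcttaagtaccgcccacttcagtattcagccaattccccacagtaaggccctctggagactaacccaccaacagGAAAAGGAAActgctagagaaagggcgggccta
Ifitm3: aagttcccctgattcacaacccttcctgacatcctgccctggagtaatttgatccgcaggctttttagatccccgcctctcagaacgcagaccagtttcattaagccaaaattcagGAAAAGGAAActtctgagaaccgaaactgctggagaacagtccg
Rsad2: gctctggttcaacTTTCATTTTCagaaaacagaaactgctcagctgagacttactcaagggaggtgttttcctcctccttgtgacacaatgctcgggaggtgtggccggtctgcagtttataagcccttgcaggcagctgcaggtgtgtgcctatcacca
Ifi44: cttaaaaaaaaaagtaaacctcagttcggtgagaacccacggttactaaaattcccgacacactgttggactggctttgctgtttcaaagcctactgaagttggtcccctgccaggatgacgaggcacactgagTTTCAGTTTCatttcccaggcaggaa
Ifi44l: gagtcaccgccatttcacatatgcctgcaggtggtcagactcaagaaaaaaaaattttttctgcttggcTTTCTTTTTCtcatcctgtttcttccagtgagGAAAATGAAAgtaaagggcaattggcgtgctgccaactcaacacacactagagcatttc
Bst2: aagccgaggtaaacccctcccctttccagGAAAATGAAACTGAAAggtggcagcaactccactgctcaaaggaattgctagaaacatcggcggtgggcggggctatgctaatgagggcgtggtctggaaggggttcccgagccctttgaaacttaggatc

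In the table's full windows, which run from 250 bases before the start to 50 bases after it, the ISRE core was found on either strand in 7 of 7 members. It was found in 3.92% of all 33469 rat promoters in the same window and in 3.06% of the 15759 promoters of genes in the deposited tables. Ifit3 and Ifitm3 held the match at the same distance, from -44 to -35, and Ifitm2 held it from -33 to -24 with the same 10 letters as Ifitm3, GAAAAGGAAA. Rsad2 held it farther away, from -147 to -138. Bst2 held 2 overlapping matches between -131 and -116, Ifi44l held 1 from -91 to -82 and 1 from -59 to -50, and Ifi44 held 1 from -26 to -17 and another after the start, from 27 to 36. The core of the interferon gamma-activated site (GAS), searched as TTCNNNGAA, which reads the same on both strands, was found in Ifitm3, Ifi44l and Bst2, 3 of the 7 members against 8.87% of all promoters. In Bst2 the GAS match, from -137 to -129, overlapped the first ISRE match. These are matches of letters only and do not show that a factor binds there.

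**Figure D1:**
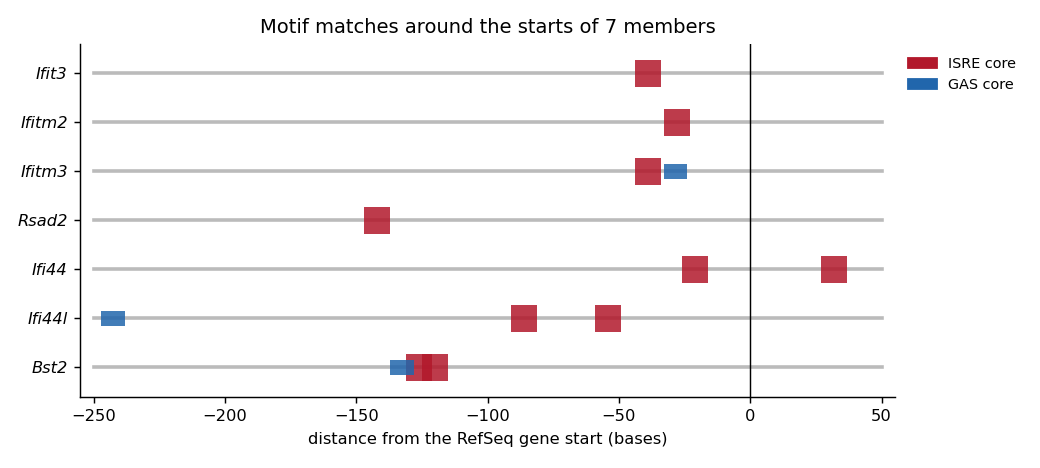
Matches to the ISRE core (red) and the GAS core (blue) around the RefSeq starts of 7 members, with the distance from the gene start in bases on the x axis and 1 gene per line. Each of the 7 genes has at least 1 ISRE match, at -44 in Ifit3 and Ifitm3 and at -147 in Rsad2, and 3 genes have a GAS match.

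Total counts per library ranged from 24770972 to 28709049, and 3 counts, taken here as the smallest level detected, equalled 0.0983 to 0.121 CPM (counts-per-million, read counts scaled to a common library total). Intervals and floors given for counts cover counting error only. The check of the labels was mixed. Slc25a26 was at 31.8 ± 2.19 CPM in siNeg and 15 ± 0.588 CPM in siSlc25a26 (mean ± SD, n = 3), a log2 difference of -1.08 (edgeR adjusted p = 1.08e-05). In the PE groups it stood at 102 ± 14.0 CPM in siNeg.PE and 101 ± 3.08 CPM in siSlc25a26.PE, a log2 difference of -0.0062 (standard error 0.101, edgeR adjusted p = 0.969), so the target was not measurably lower in the libraries labelled siSlc25a26.PE. Nap1l5, the siRNA target that the study's paper names where the labels name Slc25a26, had log2 differences of -0.84 without PE (edgeR adjusted p = 0.0397) and -1.05 under PE (edgeR adjusted p = 0.000636). Without PE its libraries overlapped, at 2.57 to 4.74 CPM in siNeg and 1.39 to 2.74 CPM in siSlc25a26. Nppa and Nppb, which encode natriuretic peptides, were higher in siSlc25a26, by 1.14 and 1.97 without PE (edgeR adjusted p = 0.000562 and 8.73e-05) and by 1.02 and 1.91 under PE (edgeR adjusted p = 0.000259 and 0.000493). The paper instead reports that both were suppressed after the siRNA against Nap1l5. It also reports mainly immune response terms among the genes that were higher after that siRNA. Which siRNA these libraries received was not settled by these values. The reported directions of the siRNA comparisons rest on the labels. Cardiomyocyte marker genes summed to 33860 to 83055 CPM in every library, fibroblast markers to 8616 to 23904 CPM, and macrophage markers to 42.3 to 138 CPM, so the cultures were not of cardiomyocytes alone. In such bulk RNA, more or fewer cells expressing a gene and more or less RNA per cell cannot be told apart.

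To examine whether the siRNA labelled siSlc25a26 was accompanied by a change of the antiviral effectors in unstimulated myocytes, the 3 siSlc25a26 libraries were compared with the 3 siNeg libraries. Ifit2, Ifit3, Ifitm3, Rsad2, Ifi44, Ifi44l and Bst2 were higher in siSlc25a26, by 7.55-fold (Ifitm3) to 294-fold (Ifit3), whereas Ifitm1 and Ifitm2 changed by less than 1.5-fold and Ifit1 was too low to test. A gene is called here at a fold change above 1.5 and an edgeR adjusted p under 0.05. Of the 9 members tested, 7 were called higher and 0 lower, against 8.92% of the 13829 tested genes called higher and 7.2% called lower. DESeq2 and limma-voom also called 7 higher and 0 lower, and at an unadjusted p under 0.05 in edgeR 9 were higher and 0 lower. The median log2 fold change was 3.73 over the 9 members and 0.015 over all tested genes. Ifi44l passed the low count filter only through the libraries labelled siSlc25a26. The summed level of the 10 members was 213 to 248 CPM in the siNeg libraries and 1868 to 2059 CPM in the siSlc25a26 libraries.

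The same comparison under PE, siSlc25a26.PE against siNeg.PE, called these 7 members higher again and 0 lower among 10 tested, against 7.71% of the 13671 tested genes called higher and 8.1% called lower. Their increases ran from 3.87-fold (Ifitm3) to 135-fold (Ifit3). Ifi44l passed the low count filter here only through the siSlc25a26.PE libraries. At an unadjusted p under 0.05 in edgeR 8 were higher and 0 lower, and DESeq2 and limma-voom called 7 higher and 0 lower. The median log2 fold change was 2.92 over the 10 members and -0.0028 over all tested genes. The summed level was 244 to 293 CPM in siNeg.PE and 1114 to 1179 CPM in siSlc25a26.PE. The 7 calls were made in both comparisons under each alternative tool, scaling and omitted library that was tried, except that a filter of at least 10 counts in every library removed Ifi44l and left 6.

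**Figure D2:**
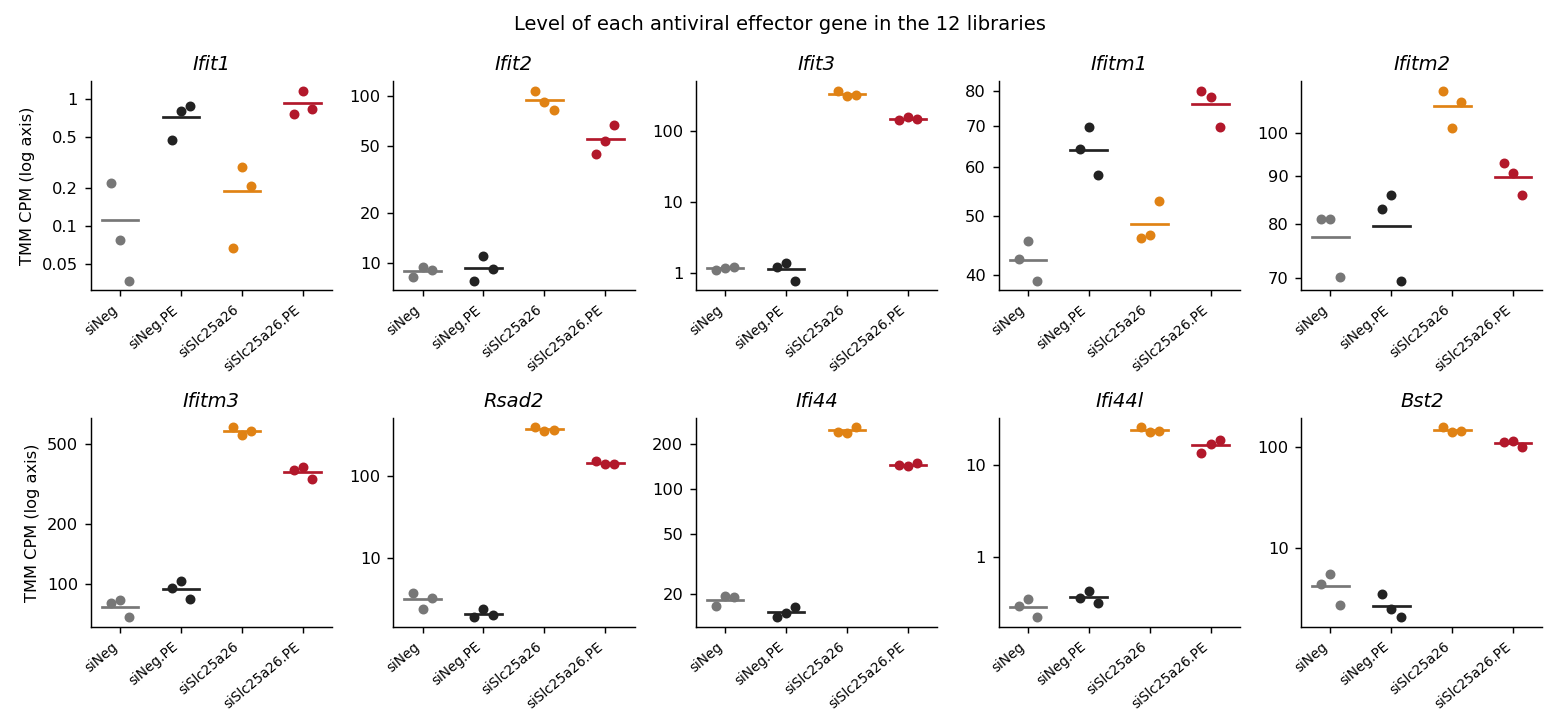
Level of each of the 10 members in the 12 libraries, as CPM on a log axis that differs between panels, with a point per library and a line at the group mean. For Ifit2, Ifit3, Ifitm3, Rsad2, Ifi44, Ifi44l and Bst2 the siSlc25a26 and siSlc25a26.PE libraries lie far above both siNeg groups, and for Ifit1 and Ifitm1 the PE groups lie above the groups without PE.

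Among the IFIT genes, Ifit3, a binding partner of IFIT1, showed the largest increase of the members. Its level was 1.10, 1.17 and 1.19 CPM in the siNeg libraries and 376, 317 and 326 CPM in the siSlc25a26 libraries, and it was 1.20, 1.35 and 0.765 CPM in siNeg.PE against 143, 158 and 148 CPM in siSlc25a26.PE. The groups were far apart at either state, and every siNeg library held no more than 35 estimated counts. The log2 fold change of Ifit3 was 8.20 without PE (standard error 0.111, edgeR adjusted p = 4.07e-10) and 7.08 under PE (standard error 0.142, edgeR adjusted p = 4.23e-09).

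Ifit2, an RNA-binding IFIT linked to inhibition of translation and to cell death, started higher and rose less. It was at 8.30, 9.46 and 9.12 CPM in siNeg and 107, 91.4 and 82.6 CPM in siSlc25a26, and at 7.87, 11 and 9.26 CPM in siNeg.PE against 44.8, 54.0 and 67.0 CPM in siSlc25a26.PE. The siNeg and siNeg.PE libraries overlapped, and the lowest library labelled siSlc25a26 or siSlc25a26.PE was above the highest siNeg or siNeg.PE library. The log2 fold change of Ifit2 was 3.39 without PE (standard error 0.109, edgeR adjusted p = 3.02e-08) and 2.57 under PE (standard error 0.170, edgeR adjusted p = 6.97e-06).

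Ifit1, which binds viral RNA whose cap lacks the host's methylation, was near the limit of detection. Its estimated counts were 6, 2 and 1.03 in siNeg and 2.01, 9.1 and 6.01 in siSlc25a26, too few for the filter. The ratio of siSlc25a26 to siNeg over the summed counts was 1.70, with a 95% counting interval of 0.716 to 4.32. Under PE the counts were 12.03, 21.12 and 22.06 in siNeg.PE and 20.08, 30.12 and 22.1 in siSlc25a26.PE, and the log2 fold change was 0.37 (standard error 0.316, edgeR adjusted p = 0.392). The gene lies within the span of its relative Ifit1bl in the RefSeq annotation, and the estimated counts of both genes are partly not whole, so reads may be split between them and the level of Ifit1 is uncertain.

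Ifit1bl, an IFIT1-like gene that is no member, was far easier to measure. It was at 1.99 ± 0.301 CPM in siNeg, 26.1 ± 5.23 CPM in siSlc25a26, 18.9 ± 3.24 CPM in siNeg.PE and 76.0 ± 2.79 CPM in siSlc25a26.PE (n = 3 each). Its log2 fold change for the siRNA comparison was 3.71 without PE (edgeR adjusted p = 5.62e-07) and 2.01 under PE (edgeR adjusted p = 3.67e-06). Ifit2, Ifit3 and Ifit1bl lie side by side on chromosome 1 in RefSeq, and each of the 3 was called higher in both comparisons.

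The IFITM genes split. Ifitm3, which blocks the entry of viruses from endosomes, was at 80.4, 83.2 and 68.1 CPM in siNeg and 608, 558 and 582 CPM in siSlc25a26, and at 96.1, 104 and 84.3 CPM in siNeg.PE against 373, 384 and 337 CPM in siSlc25a26.PE. No library of either siNeg group came near the libraries labelled siSlc25a26 or siSlc25a26.PE. The log2 fold change was 2.92 without PE (standard error 0.0809, edgeR adjusted p = 1.03e-08) and 1.95 under PE (standard error 0.0925, edgeR adjusted p = 6.52e-07), the smallest of the 7 called members in both comparisons.

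Ifitm2, its close relative, moved little. It was at 80.9, 81.1 and 70.2 CPM in siNeg and 111, 101 and 108 CPM in siSlc25a26. The groups did not overlap, but the log2 difference of 0.47 (standard error 0.0682, edgeR adjusted p = 0.000688) stayed below 1.5-fold. Under PE it was at 83.1, 85.9 and 69.6 CPM in siNeg.PE and 93.0, 90.7 and 85.9 CPM in siSlc25a26.PE, and the groups overlapped, with a log2 difference of 0.19 (standard error 0.0896, edgeR adjusted p = 0.131). Its promoter window holds the same ISRE letters as that of Ifitm3. The estimated counts of Ifitm2 were not whole in any library, so that some of its reads may be shared with other genes.

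Ifitm1, which acts mainly at the cell surface, was at 42.5, 45.4 and 39.1 CPM in siNeg and 46.0, 46.5 and 52.9 CPM in siSlc25a26, a log2 difference of 0.20 (standard error 0.0775, edgeR adjusted p = 0.0675). Under PE it was at 64.3, 69.8 and 58.4 CPM in siNeg.PE and 80.2, 78.2 and 69.9 CPM in siSlc25a26.PE. The highest control and the lowest siSlc25a26.PE library nearly met, and the log2 difference of 0.26 (standard error 0.0871, edgeR adjusted p = 0.0433) was below 1.5-fold. Ifitm1 and Ifitm2 are direct neighbours in RefSeq, and Ifitm3 lies beyond an uncharacterized gene next to Ifitm1. The other relatives in the tables, Ifitm5, Ifitm6 and Ifitm10, were too low to test, with Ifitm6 at 3 summed counts in siNeg and 4 in siSlc25a26.

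Rsad2 was at 3.78, 2.41 and 3.33 CPM in siNeg and 388, 353 and 361 CPM in siSlc25a26, and at 1.93, 2.47 and 2.05 CPM in siNeg.PE against 149.9, 139 and 138 CPM in siSlc25a26.PE. Its siNeg libraries ranged from 2.41 to 3.78 CPM, and the groups with different siRNA were far apart. The log2 fold change of Rsad2 was 6.85 without PE (standard error 0.118, edgeR adjusted p = 7.52e-10) and 6.05 under PE (standard error 0.101, edgeR adjusted p = 4.23e-09). Its neighbour Cmpk2, which encodes a mitochondrial nucleotide kinase that supplies the substrate of viperin, had log2 fold changes of 5.92 and 5.29 in the same comparisons (edgeR adjusted p = 8.25e-10 and 4.23e-09).

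The neighbours Ifi44 and Ifi44l differed in level and in fold change. Ifi44 was at 16.6, 19.6 and 19.1 CPM in siNeg and 240.2, 238 and 257 CPM in siSlc25a26, and at 14.0, 14.9 and 16.5 CPM in siNeg.PE against 145, 142 and 149 CPM in siSlc25a26.PE. Its log2 fold change was 3.73 without PE (standard error 0.0737, edgeR adjusted p = 1.26e-09) and 3.27 under PE (standard error 0.0746, edgeR adjusted p = 5.65e-09). Ifi44 thus had the narrowest standard errors of the called members.

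Ifi44l was close to the floor in the controls, with 8, 9 and 6 counts in siNeg and 9, 11 and 8 in siNeg.PE. It had 756, 685 and 665 counts in siSlc25a26 and 353, 435 and 482 in siSlc25a26.PE. In CPM this was 0.289 ± 0.0643 and 23.7 ± 1.65 without PE, and 0.369 ± 0.0519 and 16.4 ± 2.50 under PE (n = 3 each). The log2 fold change of Ifi44l was 6.34 without PE (standard error 0.154, edgeR adjusted p = 4.33e-09) and 5.46 under PE (standard error 0.203, edgeR adjusted p = 1.16e-07).

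Bst2 was at 4.45, 5.49 and 2.74 CPM in siNeg and 157, 140.4 and 144 CPM in siSlc25a26, and at 3.49, 2.51 and 2.05 CPM in siNeg.PE against 113, 115 and 99.6 CPM in siSlc25a26.PE. Its siNeg libraries ranged from 2.74 to 5.49 CPM, and none approached the libraries labelled siSlc25a26. The log2 fold change of Bst2 was 5.12 without PE (standard error 0.168, edgeR adjusted p = 3.25e-08) and 5.35 under PE (standard error 0.157, edgeR adjusted p = 2.47e-08). The tested difference between them was 0.21 (standard error 0.267, edgeR adjusted p = 0.65).

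**Figure D3:**
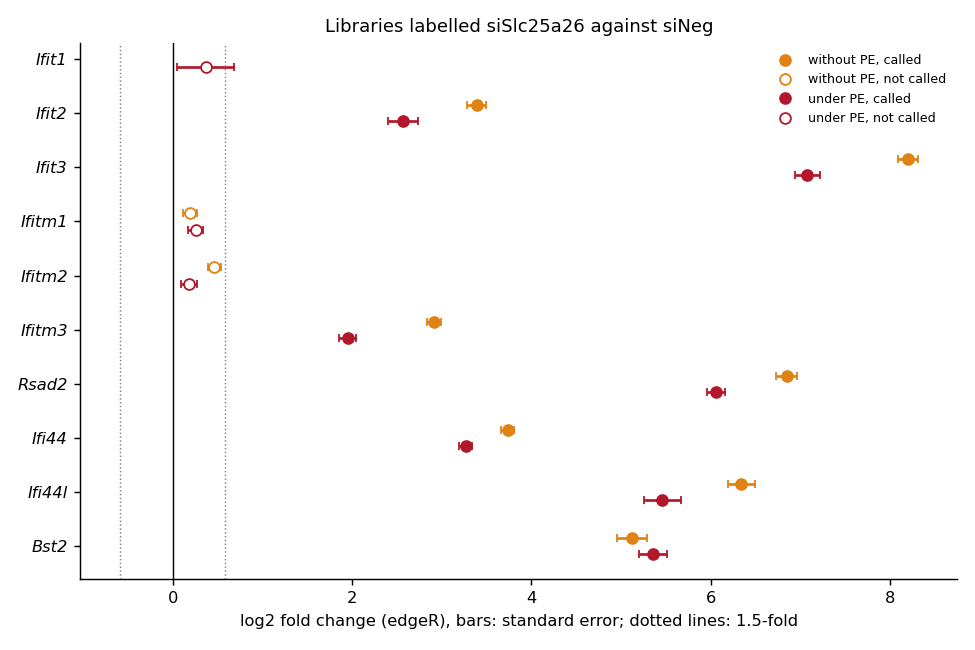
Log2 fold change of each member between libraries labelled siSlc25a26 and siNeg, without PE (orange) and under PE (red), with the standard error as a bar, filled points for called genes and dotted lines at 1.5-fold. The 7 called members lie between 1.95 and 8.20, while Ifit1, Ifitm1 and Ifitm2 lie at or below 0.47.

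Groups did not overlap, with every siSlc25a26 library above every siNeg library, for 9 of the 9 members tested without PE (29.2% of all tested genes) and for 8 of 10 under PE (25.1% of all tested genes), the exceptions under PE being Ifit1 and Ifitm2. Macrophages and other immune cells can express these genes strongly. The macrophage markers summed to 113 to 138 CPM in siNeg and 60.2 to 69.0 CPM in siSlc25a26, and of the 8 tested without PE 0 were called higher and 6 lower by edgeR, DESeq2 and limma-voom alike, with 0 higher at an unadjusted p under 0.05. Under PE they summed to 62.4 to 71.2 CPM in siNeg.PE and 42.3 to 49.9 CPM in siSlc25a26.PE, with 0 called higher and 2 lower of 8, and Cd163 was at 0 in all libraries outside siNeg. Lymphocyte markers summed to between 1.85 and 5.51 CPM in any library and dendritic cell and neutrophil markers to at most 0.423 CPM. Without PE Cd8a was called higher by edgeR and limma-voom but not by DESeq2, at 18 summed counts in siNeg and 54 in siSlc25a26, and Cd4 was called lower. Cd8a passed the low count filter there only through the siSlc25a26 libraries. The fibroblast markers summed to 21830 to 23904 CPM in siNeg and 12359 to 13906 CPM in siSlc25a26, with 6 of 9 called lower, and under PE to 11718 to 12193 CPM in siNeg.PE and 8616 to 9419 CPM in siSlc25a26.PE, with 4 of 9 called lower and 1, Tcf21, higher. Of 10 cardiomyocyte markers 1, Myh6, was called lower without PE (-0.66) and 1, Actc1, higher under PE (0.66). Endothelial markers summed to 26.7 to 33.5 CPM over all libraries, with 1 of 7 called lower without PE and 0 of 6 called under PE, and mural cell markers to 672 to 1008 CPM, with 1 of 6 called lower in each comparison and 1 called higher under PE. Of all tested genes, 8.92% were called higher and 7.2% lower without PE, and 7.71% higher and 8.1% lower under PE. The part of these cell types in the results was not tested.

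Per unit of gene length, the order of the members also differed between the groups. By FPKM, the unit that divides by gene length and library size, the IFITM genes led in siNeg, with Ifitm3 at 148 ± 14.6 and Ifitm2 at 141 ± 10.7, which overlapped, and Ifitm1 at 69.6 ± 4.68 (n = 3 each). Ifi44 followed at 11.9 ± 1.10, Bst2 at 6.14 ± 1.99 and Ifit2 at 2.72 ± 0.180, and Rsad2, at 0.91 ± 0.20, and Ifit3, at 0.597 ± 0.0252, came after these. Ifi44l (0.14 ± 0.030) and Ifit1 (0.0567 ± 0.0473) were last and overlapped, while the replicates of the other neighbours in this order did not overlap. In siNeg.PE Ifitm3, Ifitm2 and Ifitm1 kept their places, at 177 ± 17.0, 141 ± 13.8 and 103 ± 8.63 FPKM.

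In siSlc25a26 Ifitm3 led at 1172 ± 48.5 FPKM. Bst2 came next at 224 ± 13.2, then Ifitm2 at 205 ± 8.50 and Ifit3 at 182 ± 17.6, which overlapped, Ifi44 at 165 ± 4.98 and Rsad2 at 109.6 ± 5.91. Ifitm1, Ifit2, Ifi44l and Ifit1 followed at 83.0 ± 5.79, 29.7 ± 4.19, 12.0 ± 0.872 and 0.103 ± 0.0603. In siSlc25a26.PE Ifitm3 was again first at 656 ± 44.2, Ifitm2 (154 ± 5.33) and Bst2 (149 ± 11.3) overlapped, and Ifitm1 at 118 ± 8.05 stood above Ifi44 (87.1 ± 2.11), Ifit3 (72.2 ± 4.5) and Rsad2 (38.1 ± 1.28). Ifit3 thus stood among the lowest members of the control groups and in the middle of the order in both groups labelled siSlc25a26.

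To examine the effect of PE in control myocytes, siNeg.PE was compared with siNeg. These siNeg libraries are also the controls of the siRNA comparison without PE. Ifit1 and Ifitm1 were called higher, 2 of the 9 members tested against 12.4% of the 13719 tested genes, and 0 were called lower against 8.24%. DESeq2 and limma-voom also called 0 lower, whereas a block for the replicate number called 1, Bst2 (-0.64, edgeR adjusted p = 0.0133), as did a fit of all 12 libraries (-0.64, edgeR adjusted p = 0.0331), and 3 were lower at an unadjusted p under 0.05 in edgeR. The median log2 fold change was 0.041 over the 9 members and 0.00016 over all tested genes. Ifit1 rose by a log2 fold change of 2.64 (standard error 0.547, edgeR adjusted p = 0.00498), from 9 summed counts to 55, a ratio of 6.45 with a counting interval of 3.16 to 14.8. It passed the filter only through the siNeg.PE libraries. Without siNeg replicate 1, which held 6 of these counts, its log2 fold change was 3.58. Ifitm1 rose by 0.60 (standard error 0.0836, edgeR adjusted p = 0.000782), at the edge of the 1.5-fold threshold, and it was 0.55 without siNeg replicate 3 and 0.54 without siNeg.PE replicate 2, both below it. On log2(FPKM + 1) Ifit1 (0.36) and Ifitm1 (0.55) were below it, and on log2(FPKM + 0.1) Ifitm1 was (0.56).

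The other members tested were not called in the control cells in the fit reported. Ifitm3 was 0.30 higher on the log2 scale under PE (standard error 0.0967, edgeR adjusted p = 0.0327), below 1.5-fold, and Ifit2, Ifit3 and Ifitm2 had log2 differences of 0.07, -0.05 and 0.04 (standard errors 0.140, 0.257 and 0.0910). Rsad2, Ifi44 and Bst2 had log2 differences of -0.56, -0.28 and -0.65, with edgeR adjusted p of 0.0559, 0.0534 and 0.0839. Of these, Bst2 was called lower without siNeg replicate 3 (-0.88, edgeR adjusted p = 0.0139) and without siNeg.PE replicate 1 (-0.87, edgeR adjusted p = 0.0421), and Rsad2 without siNeg replicate 2 (-0.73, edgeR adjusted p = 0.0248). Ifi44l was too low to test. Groups did not overlap for 3 members that were higher (28.7% of tested genes) and 1 that was lower (30% of tested genes). Macrophage markers were called lower for 6 of 8 and fibroblast markers for 5 of 9 in the same comparison, against 8.24% of all tested genes. Cardiomyocyte markers were called higher for 5 of 10, against 12.4%. Their part in the result was not tested.

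Between the libraries labelled siSlc25a26 and siSlc25a26.PE, several effectors were lower under PE. Ifit2, Ifit3, Ifitm3, Rsad2 and Ifi44 were called lower in siSlc25a26.PE than in siSlc25a26, 5 of the 10 members tested against 10.4% of the 13776 tested genes, and Ifit1 and Ifitm1 were called higher, against 10.1%. The median log2 fold change was -0.59 over the 10 members and -0.0036 over all tested genes. Of all called genes 49.2% were higher, and 27.4% with limma on log2(FPKM + 1), which moved the median of all genes to -0.13. Rsad2 fell by 1.35 on the log2 scale (standard error 0.0565, edgeR adjusted p = 3.11e-07), Ifit3 by 1.16 (standard error 0.0734, edgeR adjusted p = 2.98e-06) and Ifitm3 by 0.66 (standard error 0.0606, edgeR adjusted p = 2.92e-05). Ifit2 fell by 0.74 (edgeR adjusted p = 0.00227) and Ifi44 by 0.74 (edgeR adjusted p = 4.95e-06). The differences of Bst2 (-0.41), Ifi44l (-0.51) and Ifitm2 (-0.23) had edgeR adjusted p of 0.000976, 0.00489 and 0.00706 and were below 1.5-fold. Ifi44l was called lower without siSlc25a26.PE replicate 3 (-0.61). With limma on log2(FPKM + 1) and log2(FPKM + 0.1), Ifi44l (-0.63 and -0.69) and Bst2 (-0.59 and -0.59) were called lower as well.

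The levels that remained under PE were far above those of the controls. Rsad2, for example, was at 367 ± 18.5 CPM in siSlc25a26 and 142 ± 6.60 CPM in siSlc25a26.PE, against 2.15 ± 0.286 CPM in siNeg.PE (n = 3 each). Ifit1 rose by 2.27 (standard error 0.437, edgeR adjusted p = 0.00224), from 17 summed counts to 72, and passed the filter only through the siSlc25a26.PE libraries, and Ifitm1 rose by 0.67 (standard error 0.0755, edgeR adjusted p = 1e-04). On log2(FPKM + 1) both stayed below 1.5-fold, with Ifit1 at 0.39 and Ifitm1 at 0.50, and on log2(FPKM + 0.1) Ifitm1 did, at 0.50. Groups did not overlap for 8 members that were lower (32.2% of tested genes) and 2 that were higher (28.9% of tested genes). Of the macrophage markers 1 of 8 was called lower and of the fibroblast markers 1 of 9, against 10.4% of all tested genes. Of the cardiomyocyte markers 6 of 10 were called higher, against 10.1%. Their part in the result was not tested.

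**Figure D4:**
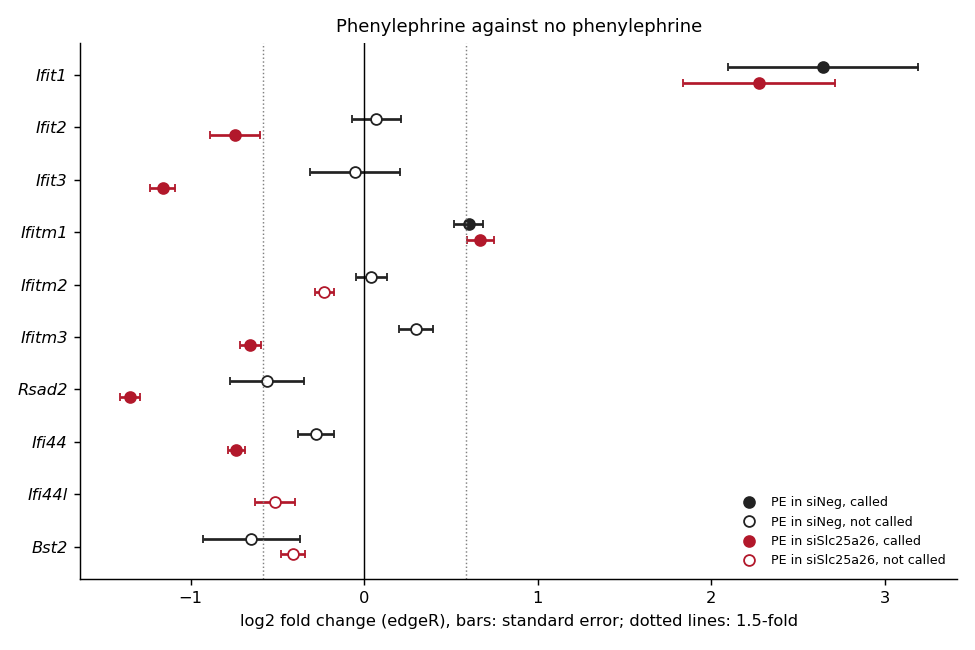
Log2 fold change of each member between libraries with and without PE, in siNeg (black) and in the libraries labelled siSlc25a26 (red), with the standard error as a bar, filled points for called genes and dotted lines at 1.5-fold. Ifit1 and Ifitm1 are higher under PE in both backgrounds, while Rsad2, Ifit3, Ifit2, Ifi44 and Ifitm3 are called lower in red and not in black, and the tested difference is called for Ifit2, Ifit3, Ifitm3 and Rsad2 alone.

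Whether the difference with PE was unequal between the libraries labelled siSlc25a26 and siNeg was tested as an interaction over all 12 libraries. The PE effect was lower in siSlc25a26 than in siNeg for Ifit2, Ifit3, Ifitm3 and Rsad2, 4 of the 10 members against 3.34% of the 14097 tested genes, and was called higher for 0 against 2.16%. DESeq2 and limma-voom also called 0 higher, and 0 were higher at an unadjusted p under 0.05 in edgeR. The difference between the PE effects was -0.98 for Ifitm3 (standard error 0.125, edgeR adjusted p = 0.000641), -1.13 for Ifit3 (standard error 0.234, edgeR adjusted p = 0.00858), -0.81 for Rsad2 (standard error 0.185, edgeR adjusted p = 0.0155) and -0.84 for Ifit2 (standard error 0.221, edgeR adjusted p = 0.03). Ifi44 differed by -0.48 (edgeR adjusted p = 0.00848), below 1.5-fold. Ifi44l (-0.90, standard error 0.331, edgeR adjusted p = 0.133), Ifitm2 (-0.30), Bst2 (0.21), Ifit1 (-0.39) and Ifitm1 (0.04) did not pass, with edgeR adjusted p from 0.122 to 0.851. The median over the 10 members was -0.65, and over all tested genes it was -0.045. Of all called genes 39.3% were higher, and 23.4% with limma on log2(FPKM + 1), which moved the median of all genes to -0.11.

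These calls were not equally firm. With limma on log2(FPKM + 1) and log2(FPKM + 0.1), Ifi44 (-0.61 and -0.59) and Ifi44l (-0.67 and -0.88) were called lower too. Ifitm3 passed in each alternative and without each library. With limma-voom, Ifit2 and Ifit3 had adjusted p of 0.0574 and 0.0518. Rsad2 was lost without siNeg.PE replicate 2, at -0.69 (edgeR adjusted p = 0.0601). Ifit2 was lost without siNeg replicate 1 (-0.79), siNeg replicate 2 (-0.87), siNeg.PE replicate 2 (-0.70), siNeg.PE replicate 3 (-0.84), siSlc25a26 replicate 1 (-0.72), siSlc25a26 replicate 2 (-0.85) and siSlc25a26.PE replicate 2 (-0.83), with edgeR adjusted p from 0.0552 to 0.0857. In the test of the difference, macrophage markers were called higher for 3 of 8 (2 with limma-voom) and mural cell markers for 2 of 6. Lymphocyte markers were called higher for 1 of 2 and cardiomyocyte markers for 1 of 10, against 2.16% of all tested genes. Fibroblast and endothelial markers were called for 0 of 9 and 0 of 7. The part of these cell types in the result was not tested.

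The rest of the interferon pathway was examined with lists of other genes. Among the ligands, Ifnb1, which encodes interferon beta, had 1, 0 and 0 counts in siNeg and 50, 53 and 55 counts in siSlc25a26, a ratio of 142 with a counting interval of 25.1 to 5645 (fitted log2 fold change 6.72, edgeR adjusted p = 1.36e-05). Ifnb1 passed the low count filter only through the siSlc25a26 libraries. In siNeg.PE it had 0 counts in each library against 4, 7 and 7 in siSlc25a26.PE, at least 5.85-fold higher with the floor of 3 counts over the group. From siSlc25a26 to siSlc25a26.PE Ifnb1 fell by 2.90 on the log2 scale (edgeR adjusted p = 4.12e-05), again passing the filter only through the siSlc25a26 libraries. The ligands Ifna1, Ifna2, Ifna4, Ifna5, Ifna11, Ifne, Ifnl1 and Ifnl3 were too low to test in every comparison, and Ifnk and Ifng were not analysed here. Of these, Ifna4, Ifna11 and Ifna2 had 0 counts in siNeg and 43, 27 and 8 summed counts in siSlc25a26. Ifne had 3 summed counts in siNeg and 1 in siSlc25a26. Of 9 ligands, 7 were at 0 in every siNeg library and 1 in every siSlc25a26 library.

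Of 13 genes for interferon receptors and signalling, 6 were called higher without PE and 5 under PE, against 8.92% and 7.71% of all tested genes. Stat2, a signal transducer of the interferon receptor, was higher by 2.79 on the log2 scale without PE (edgeR adjusted p = 4.33e-09) and by 2.46 under PE (edgeR adjusted p = 3.75e-08). Its partner Irf9 was higher by 2.20 and 2.13, and Usp18, which removes ISG15 from proteins and restrains the receptor, by 4.95 and 4.87. Socs1, a feedback inhibitor, was called in both comparisons (2.68 and 1.66). The kinase gene Jak2 was called only without PE (0.94, and 0.40 under PE). The interaction over all 12 libraries covered all 13 genes of this list, with 2 called lower and 0 higher. Its value for Jak2 is not given here, so no difference between the 2 comparisons is claimed for that gene. The receptor genes Ifnar1, Ifnar2, Ifngr1 and Ifngr2, the kinases Jak1 and Tyk2 and the inhibitor Socs3 were not called, with log2 differences from 0.10 to 0.56 without PE and from -0.28 to 0.51 under PE.

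Of 11 sensors of viral nucleic acid and their adaptors, 9 were called higher without PE and 8 under PE, against the same 8.92% and 7.71%. Zbp1, a sensor of left-handed nucleic acid, had 3 summed counts in siNeg and 1355 in siSlc25a26, a ratio of 406 with a counting interval of 139 to 1971. Zbp1 and Tlr7 passed the low count filter in these comparisons only through the libraries labelled siSlc25a26 or siSlc25a26.PE. Dhx58 and Ifih1, RNA helicases that sense or modulate the sensing of viral RNA, were higher by 5.95 and 4.22 without PE and by 5.76 and 3.59 under PE. The adaptors Mavs (-0.17 and -0.09) and Tmem173 (0.36 and 0.19) were not called in either comparison, and the kinase Tbk1 was called without PE (0.68) and not under PE (0.38). Of 4 interferon regulatory factors, Irf7 was called higher by 6.12 and 6.77 and Irf1 by 2.0 and 1.30, while Irf3 (0.43 and 0.30) and Irf5 (0.53 and 0.55) were not called.

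Of 28 other antiviral effectors, 27 were called higher in each of the siRNA comparisons, against 8.92% and 7.71% of all tested genes. Their median log2 fold change was 4.37 without PE and 3.82 under PE. The largest without PE were Mx1, a GTPase that traps viral nucleocapsids, at 8.44, Isg15, a ubiquitin-like protein, at 7.07, and Oas2, which makes the activator of RNase L, at 6.71. Under PE they were at 7.06, 6.66 and 6.67. Oas2 passed the low count filter in both comparisons only through the libraries labelled siSlc25a26 or siSlc25a26.PE. Oas3 was the exception, with log2 differences of 0.11 (edgeR adjusted p = 0.754) and 0.64 (edgeR adjusted p = 0.0647). In the comparison of PE in siSlc25a26, 16 of these 28 were called lower, against 10.4% of all tested genes, with a median of -0.73. In siNeg 5 of 27 were called lower and 1 higher, against 8.24% and 12.4% of all tested genes, with a median of -0.27. The ISRE core was found in 14 of the 23 of these genes that had a promoter in the table (60.9%).

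**Figure D5:**
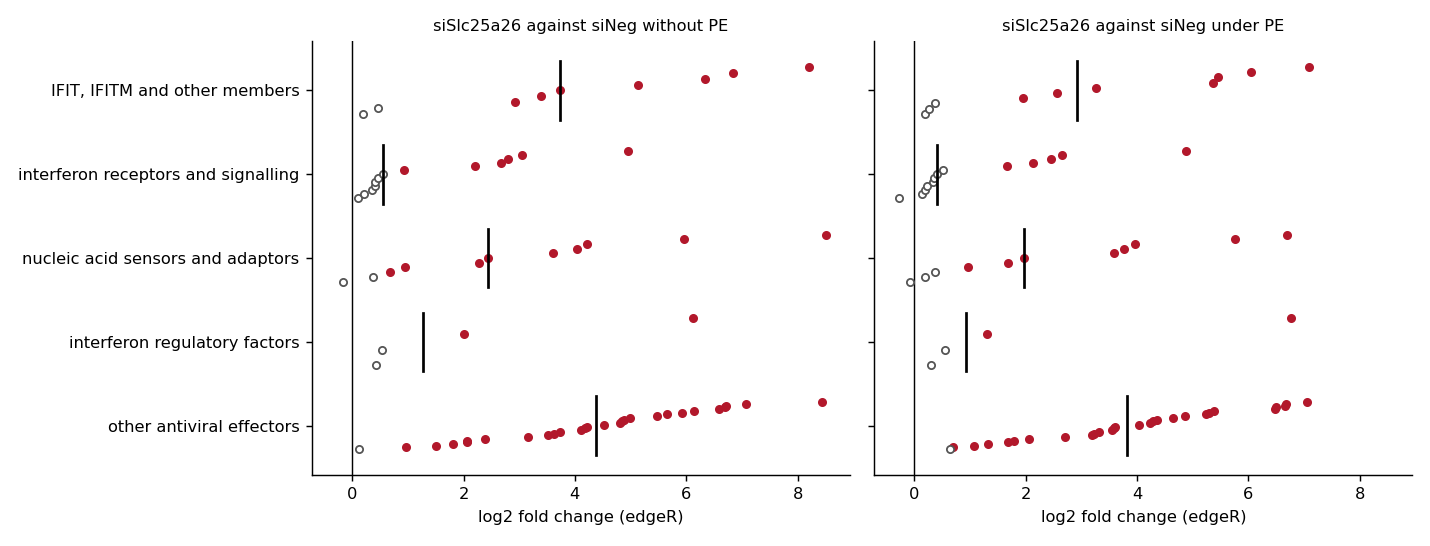
Log2 fold changes of the members and of 4 lists of interferon pathway genes between libraries labelled siSlc25a26 and siNeg, without PE (left) and under PE (right), with filled red points for called genes, open points for genes not called and a black line at each list's median. The medians without PE are 3.73 for the members, 0.56 for receptors and signalling, 2.45 for sensors and adaptors, 1.27 for interferon regulatory factors and 4.37 for other antiviral effectors.

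Finally, the genes outside the list whose pattern was most like that of the members were sought among the 14097 genes tested. The measure was Pearson's r over the 12 libraries between a gene's log2 CPM and the mean of the 10 members after each was scaled to unit spread, given as a description, since all points share the 4 groups and the same libraries. The closest were Apol9a (0.996), LOC100910885 (0.994), Sp140 (0.994), Serpinb9 (0.993) and Slfn2 (0.993). Apol9a, for example, was at 16.5 ± 2.98 CPM in siNeg, 25.4 ± 3.86 in siNeg.PE, 354 ± 9.40 in siSlc25a26 and 297 ± 22.9 in siSlc25a26.PE. Among the members themselves, each of which enters the mean, Ifi44l (0.987), Ifitm3 (0.979) and Ifit3 (0.977) were nearest to it. Ifitm2 (0.829), Ifitm1 (0.429) and Ifit1 (0.298) were farthest from it.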

How the data were processed

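RNA-seq of 12 NRVM libraries (4 groups of 3 biological replicates, grouped by title) was used. The authors deposited expected counts per gene, estimates of which about 21% were not whole, and FPKM values, scaled by the authors for gene length and library size. The submitters' processing notes name HISAT, Bowtie2 and Rnor_6.0; the counting program, annotation and strandedness are not given in the sources used here. Plain counts had been assumed when the tests were chosen; estimates were rounded to whole numbers before testing.

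Each comparison was fitted over all genes with edgeR 4.0.16 in R 4.3.3 (TMM, filterByExpr, quasi-likelihood F-test, Benjamini-Hochberg), using only the 2 groups compared, or all 12 libraries for the difference between PE effects. A call required an adjusted p under 0.05 together with more than a 1.5-fold change. CPM values use TMM factors over all libraries, and standard errors come from the F statistic. Ratios of summed counts have exact binomial intervals. Other tools were DESeq2 1.42.0 and limma 3.58.1, with voom or on log2(FPKM + 1) or log2(FPKM + 0.1). Other settings were DESeq2 size factors, fits without the filter or with at least 10 counts required of each library, a block for the replicate number, a joint fit of all groups, calls without a fold limit, and omission of each library. The script was tested on simulated counts.

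The members and lists were chosen with earlier results of these data known. By rule, the genes named from each pathway list were up to 3 with the largest change among those called without PE and any untested or uncalled member; Stat2, Irf9, Irf7 and Ifnb1; and the 5 genes most correlated with the members. Cmpk2, Ifit1bl, Jak2, Socs1, Tbk1, Cd8a, Cd4, Cd163, Tcf21, Myh6, Actc1, Nppa and Nppb were also named after their values were seen, and 1 gene that the rule names is not reported here. Promoters come from the RefSeq table of GRCr8, matched by gene identifier, and no coordinates of the build of the files are given.

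The study's paper describes an siRNA against another gene, Nap1l5, with these deposited data, whereas the labels name Slc25a26; the labels were followed. Totals of 24770972 to 28709049 counts set the precision, and the labels give no sequencing batch.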

Additional observations from a re-analysis of the deposited data

Results flagged for a closer look

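The effect of PE on 4 members differed between the libraries labelled siSlc25a26 and siNeg in a test of the difference itself. The difference, siSlc25a26 minus siNeg, was -0.84 on the log2 scale for Ifit2 (edgeR adjusted p = 0.03), -1.13 for Ifit3 (edgeR adjusted p = 0.00858), -0.98 for Ifitm3 (edgeR adjusted p = 0.000641) and -0.81 for Rsad2 (edgeR adjusted p = 0.0155). The call for Ifitm3 held in each alternative and without each library. Those for Ifit2 and Ifit3 were lost with limma-voom (adjusted p = 0.0574 and 0.0518), that for Ifit2 also without any 1 of 7 of the 12 libraries, and that for Rsad2 without siNeg.PE replicate 2. In each of the 4 genes the 3 siSlc25a26.PE libraries were below the 3 siSlc25a26 libraries. In the siNeg groups Ifitm3, Ifit2, Ifit3 and Rsad2 had log2 differences of 0.30, 0.07, -0.05 and -0.56, none of which was called. Ifit3 had 84 to 92 summed counts in each control group, so its PE effect there has a standard error of 0.257. The target Slc25a26 was lower in siSlc25a26 but not in siSlc25a26.PE, and its part in these differences was not tested.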

How the results depend on the processing

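Of the values recomputed under the alternatives, 304 counts, 717 gene values and 71 medians kept their direction and size or side of the threshold, while 36 counts and 9 medians moved, 15 gene values changed sign, 18 lost a call and 14 gained one. The cause was not tested in any case.

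With limma on log2(FPKM + 1), 0 members were called higher under PE in siNeg and 0 in siSlc25a26, against 2 in each, and with log2(FPKM + 0.1) or at least 10 counts in every library 1 was. With log2(FPKM + 1), PE in siNeg called 857 of all genes higher and 733 lower (1708 and 1130 in the fit reported), the siRNA comparison without PE called 452 lower (996), that under PE called 623 higher (1054), PE in siSlc25a26 called 564 higher (1389) and the difference between PE effects called 164 higher (305). With log2(FPKM + 0.1), PE in siSlc25a26 called 824 higher and 2214 lower (1389 and 1436), and the difference called 768 lower (471). With no fold threshold the higher and lower calls were 3456 and 3329 for PE in siNeg, 3223 and 2998 for the siRNA without PE, 2744 and 2744 under PE, 3634 and 3585 for PE in siSlc25a26, where 8 members were lower (5), and 773 and 808 for the difference. With limma-voom 2 members were called lower in the difference (4).

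The members' median log2 fold change without PE was 3.51 with log2(FPKM + 1), 3.56 with no filter, 3.56 with at least 10 counts in every library and 3.59 with all 12 libraries in one fit (3.73). Under PE it was 2.49 with log2(FPKM + 1) and 2.55 with at least 10 counts in every library (2.92), and for PE in siSlc25a26 it was -0.73 and -0.77 with log2(FPKM + 1) and log2(FPKM + 0.1) (-0.59).

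Leaving out each library gave 1 to 2 members called higher and 0 to 1 lower for PE in siNeg. For the difference between PE effects it gave 2 to 4 members lower, a median of -0.85 to -0.58, and 301 to 646 of all genes lower, with the 301 without siNeg.PE replicate 3. The 2 members lower were reached without siNeg.PE replicate 2, and -0.85 without siNeg replicate 1.

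Uncalled values near 0 changed sign. For PE in siNeg, Ifitm2 was -0.0048 with log2(FPKM + 1) and -0.0048 with log2(FPKM + 0.1), and ranged from -0.022 to 0.12 over the omitted libraries, Ifit2 from -0.061 to 0.19 and Ifit3 from -0.22 to 0.15. For the difference between PE effects, with log2(FPKM + 1) Ifit1 was 0.025, Ifitm1 -0.057 and Bst2 -0.032, and with log2(FPKM + 0.1) Ifitm1 was -0.058. Over the omitted libraries Ifit1 ranged from -1.32 to 0.080, Ifitm1 from -0.011 to 0.12 and Bst2 from -0.0087 to 0.44.

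The labels number the replicates alike in each group, but the deviations of same-numbered libraries did not correlate above 0.1 in every pair. The lowest r was 0.031 for PE in siNeg, -0.075 and -0.00092 for the siRNA without and under PE, and -0.10 for PE in siSlc25a26. For replicates 1 and 3, r was 0.22 and 0.28 for PE in siNeg and 0.23 and 0.20 for the siRNA under PE. Whether same-numbered libraries belong together was thus not settled, and the fits reported use no pairing. With the replicate block 1 member, Bst2, was called lower for PE in siNeg (-0.64, edgeR adjusted p = 0.0133), against 0 without it, and 1 was called lower with all 12 libraries in one fit.

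Depth limits Ifit1 most. With 9 summed counts in siNeg and 17 in siSlc25a26, the counting interval of their ratio ran from 0.716 to 4.32. Ratios from below 1 to above 4 are thus compatible with these counts, and the interval leaves out the spread between replicates.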
